A study of Drosophila melanogaster with 28 samples.

Results

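The genes described here read the number of X chromosomes in the Drosophila melanogaster embryo and turn that reading into sexual fate. They are Sxl, the X signal elements sisA, sc and upd1, the regulators dpn, da and gro, and tra, which acts downstream of Sxl. They were taken by symbol and make up 8 of the 16513 genes tested. All 8 were found, and 46 of the 34793 deposited transcripts belong to them, 25 of these to Sxl. The study measured where RNA polymerase II (Pol II) sits on the genome by ChIP-seq of its subunit Rpb3. The DomKD libraries (replicates 1 and 2, genotype label t216) came from stage 5 embryos of mothers that carried mat-alpha-Gal4 and a UAS-shRNA against the chromatin remodeler Domino. The Ctrl libraries (replicates 1 and 2, genotype label t180) came from stage 5 embryos of the control TRiP line. The driver is specific to the germline, so the embryos were depleted of the maternal dom transcript and kept their own dom gene. The study describes the replicates as biological, and the labels name no sex. In such bulk samples, fewer nuclei with Pol II on a gene and less Pol II per nucleus cannot be told apart.

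In Drosophila, XX embryos carry a double dose of the X signal elements, which activate the early promoter of Sxl before cellularisation, whereas XY embryos leave it silent. The early Sxl protein then directs splicing of the transcripts from the late promoter, which is used in both sexes, and this loop keeps Sxl on in females. Sxl acts on the splicing of tra and on msl-2, and so sets somatic sex and dosage compensation.

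The promoters of the X-linked members show which of them carry the letters bound by Zelda and by basic helix-loop-helix factors. The windows run from 250 bases before an annotated start to base 30 of the transcript, 5′ to 3′ on the gene's strand, and were read from the RefSeq genome (dm6). They lie at chrX:7092854-7093133 (Sxl early, minus strand), chrX:7098024-7098303 (Sxl late, minus strand), chrX:11322328-11322607 (sisA, minus strand), chrX:395810-396089 (sc, plus strand) and chrX:18309262-18309541 (upd1, minus strand). Capitals mark a match, on either strand, to the TAGteam words CAGGTAG or TAGGTAG, the E box CANNTG or the STAT site TTCNNNGAA.
Sxl early promoter: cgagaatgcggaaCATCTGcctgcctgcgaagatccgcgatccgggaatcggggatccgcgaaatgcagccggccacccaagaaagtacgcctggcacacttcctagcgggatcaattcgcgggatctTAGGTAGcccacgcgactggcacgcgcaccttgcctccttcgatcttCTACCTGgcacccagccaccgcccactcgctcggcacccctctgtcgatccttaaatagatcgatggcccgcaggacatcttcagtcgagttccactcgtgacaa
Sxl late promoter: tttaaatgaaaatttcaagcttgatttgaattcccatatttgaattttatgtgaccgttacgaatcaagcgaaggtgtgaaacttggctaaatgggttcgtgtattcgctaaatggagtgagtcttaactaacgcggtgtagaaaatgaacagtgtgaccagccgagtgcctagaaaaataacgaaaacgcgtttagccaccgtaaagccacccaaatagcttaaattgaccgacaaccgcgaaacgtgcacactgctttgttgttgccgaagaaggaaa
sisA promoter: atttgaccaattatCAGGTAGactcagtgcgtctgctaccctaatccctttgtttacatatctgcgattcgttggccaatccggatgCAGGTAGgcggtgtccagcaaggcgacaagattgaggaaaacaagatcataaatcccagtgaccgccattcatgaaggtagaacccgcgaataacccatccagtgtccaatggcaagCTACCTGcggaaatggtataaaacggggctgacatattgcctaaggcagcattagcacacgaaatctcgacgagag
sc promoter: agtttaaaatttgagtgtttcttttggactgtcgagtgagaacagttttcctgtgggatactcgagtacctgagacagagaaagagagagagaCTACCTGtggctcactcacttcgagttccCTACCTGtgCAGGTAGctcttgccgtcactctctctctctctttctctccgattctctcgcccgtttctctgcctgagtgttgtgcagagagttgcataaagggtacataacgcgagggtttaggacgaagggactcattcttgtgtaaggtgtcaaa
upd1 promoter: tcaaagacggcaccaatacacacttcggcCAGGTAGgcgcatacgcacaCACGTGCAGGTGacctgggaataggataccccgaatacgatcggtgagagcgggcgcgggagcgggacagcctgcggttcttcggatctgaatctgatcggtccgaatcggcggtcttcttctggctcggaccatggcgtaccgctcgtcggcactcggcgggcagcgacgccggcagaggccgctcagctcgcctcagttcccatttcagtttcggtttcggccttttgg

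TAGteam words stood in all 4 windows of early-acting X-linked starts. The early Sxl window held 2, beginning at -122 and -75 from the start, whereas the late Sxl window held 0. The sisA window held 3 (at -236, -163 and -46), the sc window 3 (at -157, -128 and -119) and the upd1 window 1 (at -221). The dpn window held 1, and those of tra, da and gro held 0. Of 17289 annotated gene promoters of the same length, 3.12% held a TAGteam word. E boxes were found in the windows of Sxl early (1), upd1 (2, side by side), dpn (1) and da (2), beside 74.5% of all promoters. A STAT site was found in the windows of tra (1) and gro (1), beside 8.54% of all promoters. A match is a run of letters and not a measured binding site.

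The 4 libraries held 10414859 and 9244925 reads in genes for DomKD 1 and 2 and 12022604 and 8326382 for Ctrl 1 and 2. They differed in background. The estimated share of reads above background was 55.6% in DomKD 1 and 29.1% in DomKD 2, against 53.2% in Ctrl 1 and 57.4% in Ctrl 2. DomKD 2 thus stood apart, and the members' counts are given per library. Early zygotic genes carried Pol II in every library, with slam at 110, eve at 42.0 and ftz at 40.4 times background on average. Lower among them were kni at 21.5, Kr at 15.6 and nullo at 4.87 times. The muscle genes Mhc and Act88F were at 0.925 and 0.933 times background. The neural gene elav and the glial gene repo, chosen as markers of later stages, were not at background (3.21 and 3.25 times). Domino itself is supplied by the mother, so Pol II on dom does not measure the knockdown. It was 599 and 371 CPM in DomKD, against 617 and 664 CPM in Ctrl, a difference that did not pass the test (log2 fold change -0.40, adjusted p = 0.267). X-linked background was 0.804 and 0.742 of autosomal background in the DomKD libraries and 0.700 and 0.727 in the Ctrl libraries. The part of these differences in the results was not tested.

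Of the 8 genes, 1 (gro) fell in DomKD embryos, 0 rose and 7 did not pass the test (edgeR likelihood ratio test, adjusted p under 0.05). Over all genes 15.1% passed, 12.7% as lower in DomKD and 2.46% as higher. Of the 5961 genes with a mean density of at least 2 times background, called occupied here, 30.6% passed as lower and 0.939% as higher, and all 8 genes are among them. The median log2 fold change of the 8 genes was 0.10, beside 0.07 for all genes and -0.40 for occupied genes. An unadjusted p under 0.05 in the same test was found at 2 of the 8 genes, beside 5122 of all 16513 genes. Counts are given as CPM, counts of a gene's span over the library total in genes, in parts per 1000000, after trimmed mean of M values (TMM) scaling. The DomKD and Ctrl libraries did not overlap at 3 of the 8 genes (tra and gro lower in DomKD, sisA higher), and neither did they at 62.6% of all genes. Both DomKD libraries were lower at 31.8% of all genes and higher at 30.8%. DomKD 1 was higher than both Ctrl libraries at 6 of the 8 genes, and DomKD 2 was lower than both at 7. The early zygotic genes slam, eve, ftz, Kr and kni likewise had DomKD 1 above and DomKD 2 below both Ctrl libraries, whereas nullo had the reverse. The share of all genes with such an order was not counted, so it is not read as a trait of the 8 genes.

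**Figure D1:**
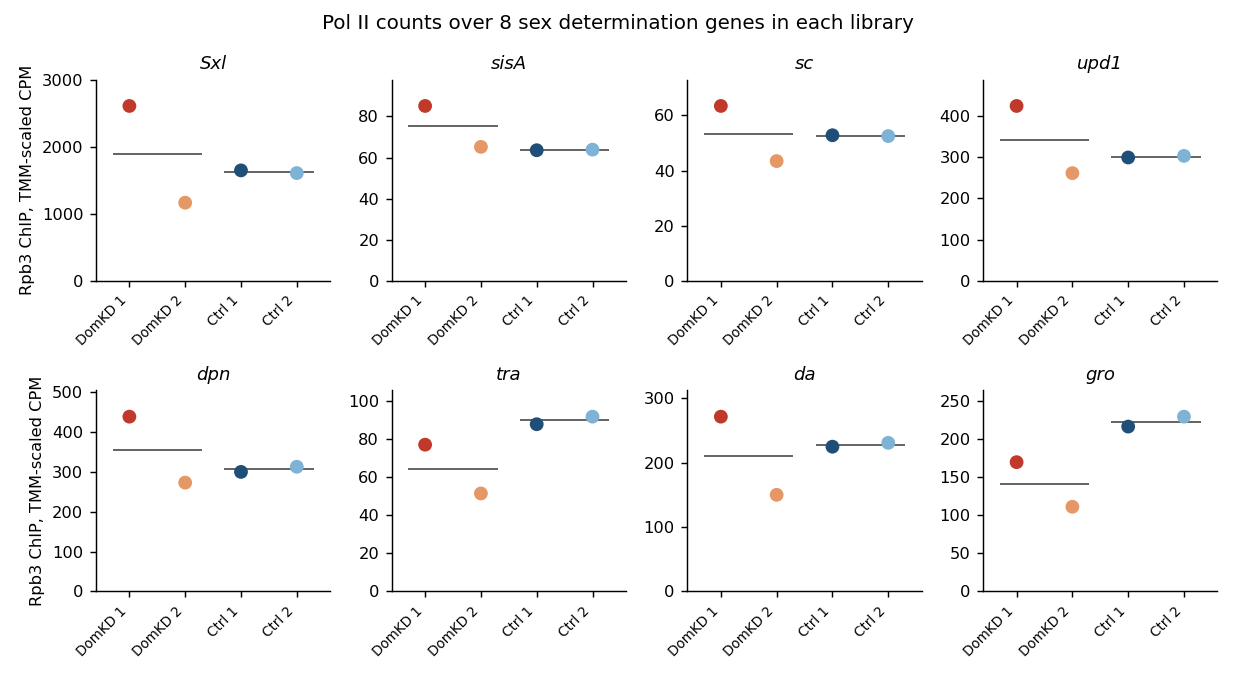
Pol II counts (TMM-scaled CPM, each axis from 0) over the 8 genes, with DomKD libraries left and Ctrl libraries right; horizontal bars are group means of 2 libraries. The Ctrl points nearly coincide at each gene while the DomKD points lie apart, as at Sxl with 2617 and 1169 CPM.

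Sxl (FBgn0264270, X:7075665-7098053, minus strand, dm6), the RNA-binding switch gene of the pathway, was among the densest genes of the embryo. Its span of 22389 nt held 2617 and 1169 CPM in DomKD, against 1652 and 1612 CPM in Ctrl. DomKD 1 was above and DomKD 2 below both Ctrl libraries, so the groups overlapped. The mean was 1893 ± 1024 CPM in DomKD and 1632 ± 28.5 CPM in Ctrl (SD, n = 2 each). The log2 fold change was 0.21 (SE 0.30, adjusted p = 0.621), and the 95% interval of the fold change ran from 0.775 to 1.74. Per kb, Sxl lay at 23.7 and 8.07 times background in DomKD, against 16.2 and 17.1 times in Ctrl, at the 98.4th percentile of all genes by mean density. Without DomKD 1 the log2 fold change was -0.48 (adjusted p = 1.28e-15), and without DomKD 2 it was 0.67 (adjusted p = 7.9e-33). In those fits the lone DomKD library is assumed to vary as the Ctrl libraries do, and 8825 and 4919 genes passed.

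The early and late promoters of Sxl were then separated. Isoforms from the early promoter start at position 7092883 and those from the late promoter at 7098053, and the 5170 nt between them lie outside the early span. Within them start 3 further isoforms, 2 at position 7097066 and 1 at 7097768. All 3 pairs of late and early isoforms with a shared end gave the same count for that stretch. Nested spans must give this, so it is not a check of the count. The stretch held 3987 and 2198 reads in DomKD, against 3649 and 2608 in Ctrl. The shortest early span (8720 nt) held 14013 and 7062 reads in DomKD, against 11525 and 7504 in Ctrl. Early span reads made up 77.9% and 76.3% of the reads of the enclosing late span in DomKD and 76.0% and 74.2% in Ctrl. Pol II on the stretch between the promoters cannot be assigned to a sex, a start or an isoform, and reads on the early span may also stem from the late promoter.

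Without TMM factors, the density of the early span was 154 and 87.6 CPM per kb in DomKD, against 110 and 103 CPM per kb in Ctrl (a TMM-scaled log2 fold change of 0.26 with SE 0.31 and an adjusted p of 0.544). On the same scale that of the stretch between the promoters was 74.0 and 46.0 CPM per kb in DomKD, against 58.7 and 60.6 CPM per kb in Ctrl (a TMM-scaled log2 fold change of 0.08 with SE 0.27 and an adjusted p of 0.842). In both regions the DomKD libraries lay on either side of the Ctrl libraries. The ratio of that stretch to the early span needs no scaling between libraries. It was 0.480 and 0.525 in DomKD, against 0.534 and 0.586 in Ctrl, so both DomKD ratios were below both Ctrl ratios. The difference was -0.058 (two-sided exact permutation test, p = 0.333, the smallest p that 2 against 2 libraries allow). With background taken off both regions the ratio was 0.465 and 0.483 in DomKD and 0.513 and 0.569 in Ctrl.

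Along the gene, Pol II was dense at the late start, thinner upstream of the early start, and dense again on the early span. The first 285 nt from the late start lay at 25.8 and 13.0 times background in DomKD, against 18.7 and 25.5 times in Ctrl. The 4183 nt that end at the early start lay at 16.6 and 6.02 times in DomKD, against 12.4 and 13.4 times in Ctrl. The early span lay at 35.0 and 12.4 times in DomKD, against 23.7 and 24.4 times in Ctrl. Over the 3 stretches downstream of it (1243, 5050 and 1161 nt) the density declined from each to the next in every library. The last 1045 nt of the 22389 nt span lay at 8.44 and 2.09 times background in DomKD, against 7.58 and 7.56 times in Ctrl. An isoform from the early start ends further downstream. Its last 2160 nt, which include those 1045 nt, lay at 5.40 and 1.72 times background in DomKD, against 4.84 and 5.18 times in Ctrl. None of the 10 Sxl stretches, some of which overlap, passed the test, beside 16.3% of all transcripts and stretches, and their log2 fold changes ran from -0.27 to 0.49.

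**Figure D2:**
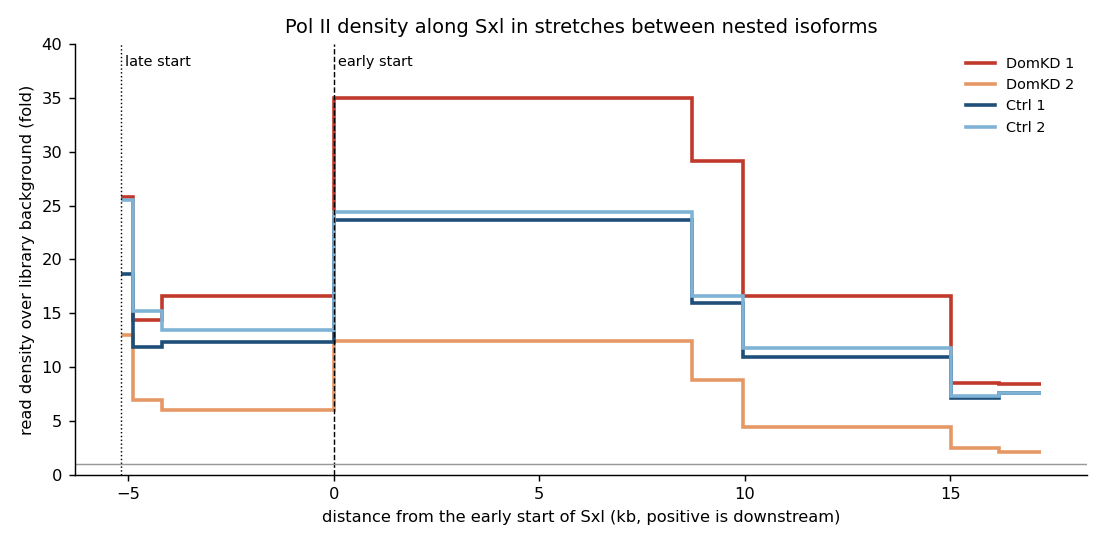
Read density over library background (fold, vertical axis) along Sxl against distance from the early start (kb), in stretches bounded by nested isoform ends, for DomKD 1 and 2 and Ctrl 1 and 2. The dashed line is the early start, the dotted line the late start and the grey line background; the early span is densest in DomKD 1 and Ctrl 1, and the first 285 nt from the late start are slightly denser still in DomKD 2 and Ctrl 2.

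The X signal elements, which report X dose to Sxl, gave no call. sisA (FBgn0003411, X:11321579-11322357, minus strand) encodes a bZIP protein and is one of the strong elements. It held 85.1 and 65.2 CPM in DomKD, against 63.6 and 63.8 CPM in Ctrl. Both DomKD libraries were above both Ctrl libraries, DomKD 2 only just. In log2 terms the change was 0.24 (SE 0.22, adjusted p = 0.435), with a fold change between 0.880 and 1.58 (95% interval). The mean was 75.2 ± 14.1 CPM in DomKD and 63.7 ± 0.200 CPM in Ctrl (SD, n = 2 each).

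sc (FBgn0004170, X:396060-397497, plus strand), a basic helix-loop-helix activator of the achaete-scute family and the other strong element, held 63.4 and 43.4 CPM in DomKD, against 52.8 and 52.5 CPM in Ctrl. The DomKD libraries lay on either side of the Ctrl libraries. The fitted log2 fold change was 0.02 (SE 0.22, adjusted p = 0.955), with a fold change between 0.752 and 1.37. All 1438 nt of sc lie inside CG32816 on the opposite strand, and counts without strand cannot separate the pair. CG32816 as a whole was at 1.04 times background, whereas sc was at 7.21 times.

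upd1 (FBgn0004956, X:18305354-18309291, minus strand), the ligand of the JAK/STAT pathway and a weak element, held 424 and 261 CPM in DomKD, against 299 and 303 CPM in Ctrl. DomKD 1 was again above and DomKD 2 below both Ctrl libraries. For upd1 the log2 fold change was 0.19 (SE 0.25, adjusted p = 0.608), with a fold change between 0.810 and 1.60. The first 162 nt of its longest span were its densest stretch, at 35.0 and 19.3 times background in DomKD, against 24.2 and 26.0 times in Ctrl (a log2 fold change of 0.43, adjusted p = 0.131).

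Of the autosomal regulators, gro fell and dpn and da did not pass the test. dpn (FBgn0010109, 2R:8228971-8232330, minus strand), a helix-loop-helix repressor that counts the autosomes against the X, held 438 and 273 CPM in DomKD, against 300 and 313 CPM in Ctrl. The Ctrl libraries lay between the DomKD libraries, and the log2 fold change was 0.22 (SE 0.25, adjusted p = 0.548), with a fold change between 0.827 and 1.63. dpn shares reads with asRNA:CR44275 on the opposite strand (log2 fold change 0.21) and with sisRNA:4 and sisRNA:CR46360 on its own strand.

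da (FBgn0267821, 2L:10388105-10393228, plus strand), the maternally supplied partner of the Sc protein, held 271 and 150 CPM in DomKD, against 225 and 231 CPM in Ctrl. DomKD 1 was above and DomKD 2 well below both Ctrl libraries. The log2 fold change was -0.11 (SE 0.26, adjusted p = 0.772), with a fold change between 0.654 and 1.31. da overlaps asRNA:CR45789 by 362 nt.

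gro (FBgn0001139, 3R:26041736-26049911, plus strand) encodes Groucho, the corepressor that Deadpan recruits to the early Sxl promoter. It held 170 and 111 CPM in DomKD, against 217 and 230 CPM in Ctrl. Both DomKD libraries were below both Ctrl libraries. The mean was 141 ± 41.4 CPM in DomKD and 223 ± 9.22 CPM in Ctrl (SD, n = 2 each). The log2 fold change was -0.67 (SE 0.24, adjusted p = 0.0391), a fold change of 0.630 (95% interval 0.456 to 0.870). Per kb, gro lay at 4.22 and 2.11 times background in DomKD, against 5.83 and 6.69 times in Ctrl. The call was lost with the quasi-likelihood test (adjusted p = 0.0678), with DESeq2 (adjusted p = 0.0630), and without Ctrl 1 (adjusted p = 0.351) or Ctrl 2 (adjusted p = 0.525).

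In gro, 3 of 4 stretches fell, beside 16.3% of all transcripts and stretches that passed, and as parts of 1 gene they are not independent. Its first 344 nt were its densest stretch, at 12.9 and 6.84 times background in DomKD, against 16.0 and 21.5 times in Ctrl (log2 fold change -0.60, adjusted p = 0.0362). The next 561 nt gave -0.65 (adjusted p = 0.0240), and the last 1012 nt gave -0.77 (adjusted p = 0.00829). A stretch of 179 nt between them gave -0.81 but did not pass (adjusted p = 0.103). The last 181 nt of gro overlap Exo84, an exocyst subunit gene on the opposite strand, which itself fell (log2 fold change -1.09, adjusted p = 5.46e-05). E(spl)m8-HLH, an early zygotic neighbour 727 nt away, had a log2 fold change of 0.06 (adjusted p = 0.870). Vps2, 2909 nt away on the other side, fell about as much as gro (log2 fold change -0.68, adjusted p = 0.00809).

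tra (FBgn0003741, 3L:16590059-16591050, minus strand), whose female splicing Sxl directs, held 77.0 and 51.4 CPM in DomKD, against 87.7 and 91.7 CPM in Ctrl. Both DomKD libraries were below both Ctrl libraries, as at gro. The mean was 64.2 ± 18.1 CPM in DomKD and 89.7 ± 2.81 CPM in Ctrl (SD, n = 2 each). The log2 fold change was -0.48 (SE 0.23, adjusted p = 0.127, unadjusted p = 0.0333), with a fold change between 0.526 and 0.973. The test was passed under library size scaling (adjusted p = 0.0349) and with TMM on early zygotic genes (adjusted p = 0.00103), but not over occupied genes alone (adjusted p = 0.378). tra shares 74 nt with l(3)73Ah on the opposite strand, which had a log2 fold change of -0.15 (adjusted p = 0.662). spd-2, 156 nt away on the same strand, had -0.54 (adjusted p = 0.0651), and CG32163, 1915 nt away, had -0.13 (adjusted p = 0.692).

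Per kb, all 8 genes lay above 2 times background on average, as did 36.1% of all genes. In both Ctrl libraries the order from densest to least dense was dpn, tra, sisA, upd1, Sxl, da, sc and gro. X-linked background was 0.700 and 0.727 of autosomal background in the Ctrl libraries, and neither the order nor the values here allow for this. The places of X-linked genes relative to autosomal genes therefore depend on the background chosen. The Ctrl ranges of dpn (19.6 to 22.2 times background) and tra (19.4 to 22.0) overlapped, as did those of tra and sisA (17.9 to 19.5), of sisA and upd1 (16.7 to 18.3), and of upd1 and Sxl (16.2 to 17.1). tra ranked 5 of 8 in both DomKD libraries, against 2 of 8 in both Ctrl libraries. Sxl ranked 2 in DomKD 1 and 4 in DomKD 2, against 5 in both Ctrl libraries. gro ranked 8 in every library.

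Ratios between genes within a library do not depend on how libraries are scaled. upd1 over dpn was 0.825 and 0.816 per kb in DomKD, against 0.851 and 0.827 in Ctrl. run over dpn was 0.545 and 0.549 in DomKD, against 0.535 and 0.541 in Ctrl. upd1, run and dpn thus kept nearly the same proportions in all 4 libraries. sisA over dpn spread more in DomKD, at 0.837 and 1.03, than in Ctrl, at 0.914 and 0.880. sc over dpn was 0.338 and 0.372 in DomKD, against 0.411 and 0.392 in Ctrl. gro over dpn was 0.159 and 0.168 in DomKD, against 0.297 and 0.302 in Ctrl. gro over da was 0.392 and 0.465 in DomKD, against 0.604 and 0.624 in Ctrl. tra over Sxl was 0.664 and 0.992 in DomKD, against 1.20 and 1.28 in Ctrl. In the ratios of sc and gro to dpn, gro to da and tra to Sxl, both DomKD libraries were below both Ctrl libraries. By small margins, both were also below for upd1 over dpn and above for run over dpn. How often the ratios of other gene pairs separate in this way was not counted. Sxl over dpn spread more in DomKD, at 0.896 and 0.642, than in Ctrl, at 0.827 and 0.773. These ratios do depend on the unequal background. With background taken off, gro over dpn was 0.126 and 0.0956 in DomKD, against 0.259 and 0.269 in Ctrl. The DomKD libraries stayed below both Ctrl libraries in the 4 ratios of sc and gro to dpn, gro to da and tra to Sxl. For upd1 and run over dpn the groups then overlapped. A ratio shows unequal change and does not tell which of its genes changed.

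**Figure D3:**
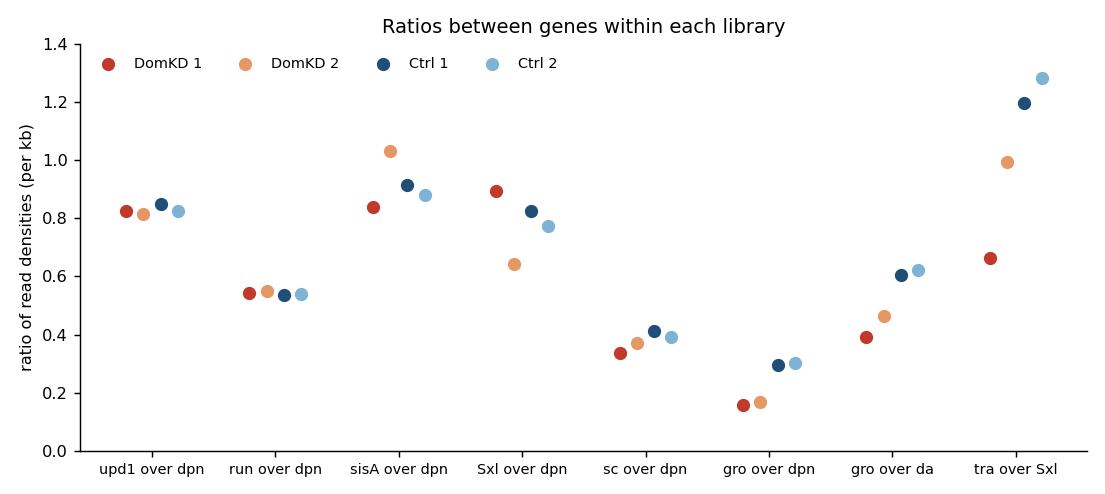
Ratio of read densities (per kb, vertical axis) between named genes within each library, DomKD 1 and 2 left of Ctrl 1 and 2. upd1 and run nearly keep their ratio to dpn in all libraries, whereas gro over dpn is 0.159 and 0.168 in DomKD and 0.297 and 0.302 in Ctrl.

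The direction of the zygotic members depended on the scaling. TMM factors from 64 early zygotic genes moved the median of all genes by -0.31 on the log2 scale. Under them Sxl (-0.19), sisA (-0.10), sc (-0.33), upd1 (-0.18) and dpn (-0.15) turned negative and none of these passed. None of the 8 genes is on that list of patterning and cellularisation genes. TMM factors and tests over the 5961 occupied genes alone, added after seeing the data, moved the median of those genes by 0.36. There Sxl (0.51), sisA (0.59), sc (0.36), upd1 (0.52) and dpn (0.55) passed as higher, gro (-0.33) passed as lower, and da (0.21) turned positive without passing. Of those 5961 genes 21.6% passed as higher and 20.0% as lower. gro was negative under all 4 scalings, and its calls held in each of them. tra was negative under all 4, did not pass over occupied genes alone (-0.14, adjusted p = 0.378), and was called under library size scaling, where 15.0% of all genes passed as lower, and under early zygotic scaling, where 24.6% did.

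Taking the background off each library gave a further view, also added after seeing the data and with no test. The values are shares of all reads above background, so a lower share at some genes raises that of others. In DomKD 2 that total was estimated at only 29.1% of reads. The same background density was taken off X-linked and autosomal genes. Sxl then had 4032 and 3826 reads above background per 1000000 such reads in DomKD, against 2972 and 2661 in Ctrl. dpn had 679 and 939 in DomKD, against 546 and 524 in Ctrl. gro had 209 and 218 in DomKD, against 344 and 342 in Ctrl. On this scale both DomKD libraries were above both Ctrl libraries at 6 of the 8 genes, beside 19.2% of occupied genes, and below at gro alone, beside 55.5%. The others above were sisA (131 and 225 in DomKD, against 115 and 106 in Ctrl), sc (90.7 and 128 in DomKD, against 88.7 and 81.4 in Ctrl), upd1 (651 and 881 in DomKD, against 539 and 502 in Ctrl) and da (396 and 437 in DomKD, against 386 and 367 in Ctrl). tra overlapped, with 116 and 168 in DomKD, against 159 and 153 in Ctrl. The log2 ratio of group means was 0.48 for Sxl, 0.68 for sisA, 0.36 for sc, 0.56 for upd1, 0.60 for dpn, -0.14 for tra, 0.15 for da and -0.69 for gro.

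**Figure D4:**
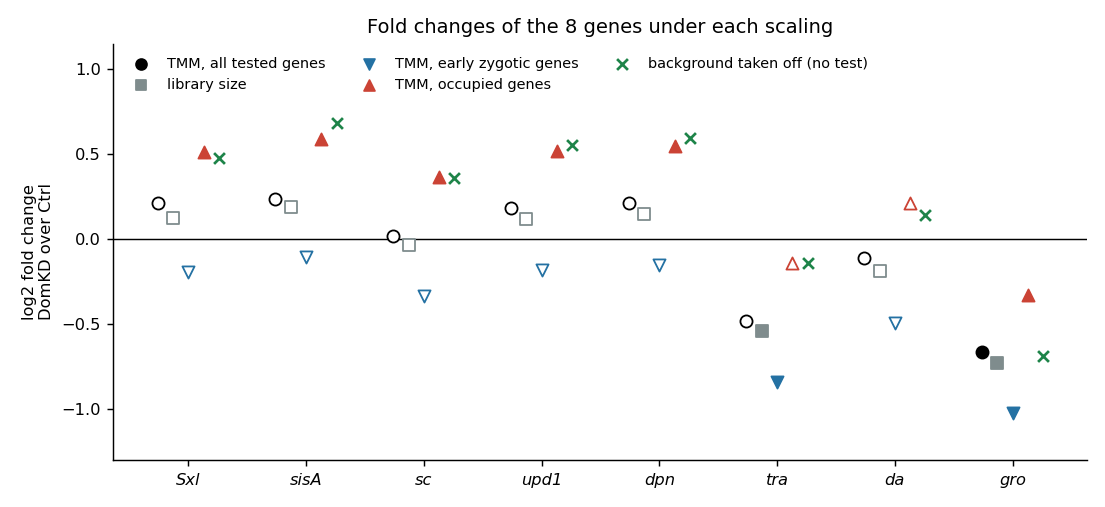
Log2 fold change (DomKD over Ctrl, vertical axis) of each gene under 4 scalings and, as crosses without a test, with background taken off; filled symbols pass an adjusted p under 0.05. Sxl runs from -0.19 to 0.51, whereas gro is below 0 throughout.

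The wider pathway held 29 genes in 4 lists, of which 6 fell, 0 rose and 23 did not pass, beside the 12.7% of all genes that fell and 2.46% that rose. All 6 are occupied genes, of which 30.6% fell. Among the X signal elements 0 of 4 passed (median log2 fold change 0.21). run, the pair-rule gene that also signals X dose, held 473 and 296 CPM in DomKD, against 318 and 335 CPM in Ctrl (0.24, SE 0.25). Among 8 regulators of the early Sxl promoter gro alone passed (median -0.09). The Jak kinase gene hop held 50.4 and 45.5 CPM in DomKD, against 67.4 and 71.6 CPM in Ctrl (-0.53, adjusted p = 0.0614), and her, a zinc finger gene, had -0.52 (adjusted p = 0.0592). Both were near background, at 1.62 and 1.39 times. hop is X-linked, and its value does not allow for the lower background of X-linked genes.

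Of 11 factors that act on Sxl splicing 4 fell and 0 rose, beside the 30.6% of occupied genes that fell, and these 4 are all occupied. The median of the 11 was -0.46, close to the -0.40 of occupied genes, beside 0.07 for all genes. Mettl14, a subunit of the m6A methyltransferase, held 32.0 and 19.4 CPM in DomKD, against 49.2 and 52.3 CPM in Ctrl (-0.98, SE 0.23, adjusted p = 0.000562). Its catalytic partner Mettl3 held 60.6 and 40.5 CPM in DomKD, against 80.3 and 80.6 CPM in Ctrl (-0.67, adjusted p = 0.0258). At both genes the DomKD libraries were below both Ctrl libraries. The nuclear m6A reader Ythdc1 fell by 0.74 on the log2 scale (adjusted p = 0.00815), and fl(2)d, the WTAP homolog needed for female Sxl splicing, fell by 0.63 (adjusted p = 0.0460). The complex members flacc (0.54, adjusted p = 0.130), nito (0.05), vir (-0.12) and Hakai (-0.42, adjusted p = 0.194) did not pass. Neither did the splicing factors U2af38 (-0.51), snf (-0.46) and U2af50 (-0.15).

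Of 6 genes downstream of Sxl, 1 fell and 0 rose (median -0.10). ix, the cofactor of the female Doublesex protein, held 5.90 and 4.77 CPM in DomKD, against 12.4 and 10.7 CPM in Ctrl (-1.12, SE 0.27, adjusted p = 0.000872). These are low counts, at 2.30 times background on average. tra2, the splicing partner of Tra, held 28.9 and 24.2 CPM in DomKD, against 34.0 and 42.1 CPM in Ctrl and did not pass (-0.52, adjusted p = 0.0687). msl-2, the dosage compensation gene repressed by Sxl, held 367 and 211 CPM in DomKD, against 234 and 244 CPM in Ctrl (0.27, adjusted p = 0.447). The long sex-effector genes dsx and fru were at background (0.949 and 0.813 times). The 6 genes that fell were lower under all 4 scalings and were called in each. Over occupied genes alone 10 of the 24 tested passed as higher, among them emc, flacc and msl-2, beside the 21.6% of all occupied genes. fl(2)d was not called with the quasi-likelihood test (adjusted p = 0.0697), with DESeq2 (adjusted p = 0.0834) or with the shortest transcript per gene (adjusted p = 0.0562). Mettl3 was not called with DESeq2 (adjusted p = 0.0684), which gave ix no adjusted p. Leaving out Ctrl 1 or Ctrl 2 left 0 of the 29 genes called, and leaving out DomKD 1 or DomKD 2 gave 25 and 20.

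**Figure D5:**
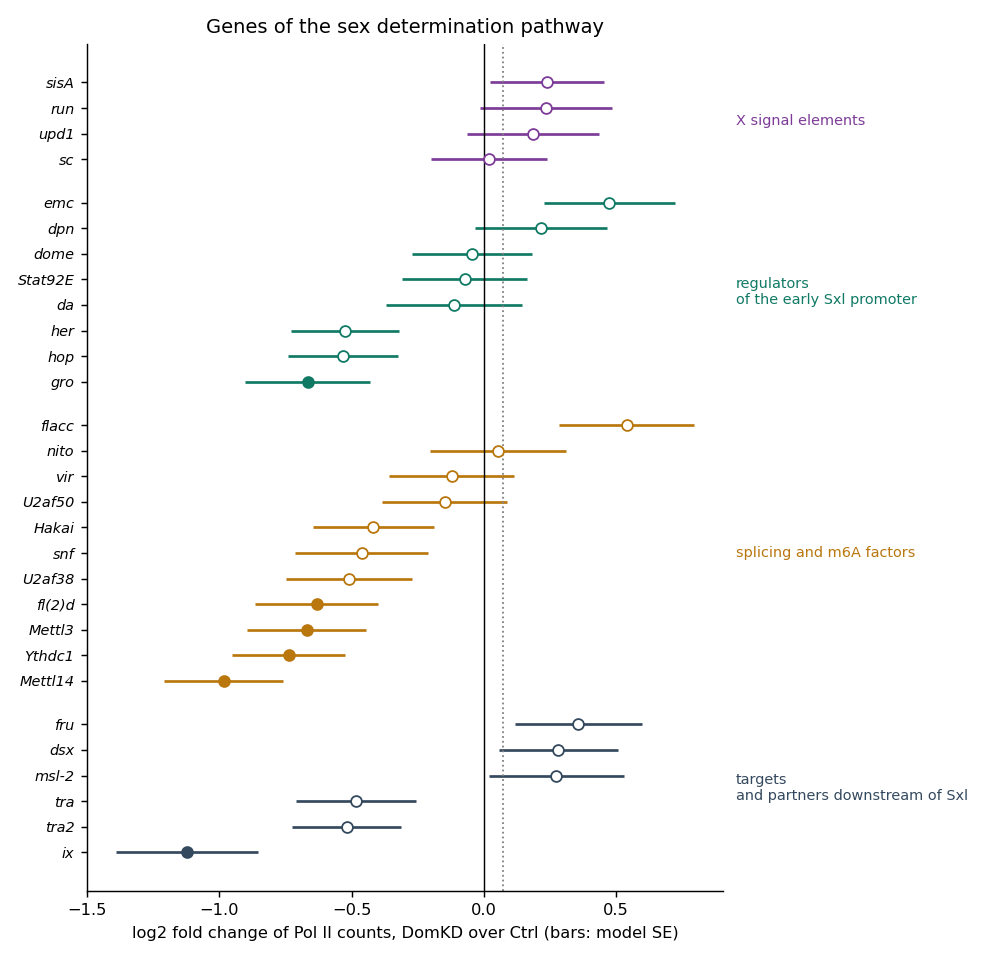
Log2 fold change (DomKD over Ctrl, horizontal axis) with model SE for 29 genes in 4 lists; filled points pass an adjusted p under 0.05, and the dotted line is the median of all genes (0.07). The 6 filled points are gro, fl(2)d, Mettl3, Ythdc1, Mettl14 and ix, all below 0.

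The genes whose density was most like that of Sxl over the 4 libraries were neur, Kr and Inx2. Their root mean square differences from Sxl in log2 density were 0.093, 0.102 and 0.120. neur lay at 96.2 and 62.0 CPM per kb in DomKD, against 72.1 and 72.0 in Ctrl, on the scale without TMM factors on which Sxl lay at 105 and 56.8, against 75.3 and 72.5. They were chosen for this likeness, so their shared order of libraries is a description. The neighbours of Sxl, CG4615 and CG4607, lay at 1.96 and 0.765 times background, below the mark of an occupied gene. Both are X-linked, and that mark does not allow for the lower background of X-linked genes.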

How the data were processed

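Rpb3 ChIP-seq reads of 4 stage 5 libraries were analysed; the other 24 samples of the series, inputs included, were not analysed here, so no input was subtracted. To make the deposited raw counts, the authors trimmed, mapped (dm6) and deduplicated the reads with snakePipes and counted them over whole transcript spans with featureCounts, ignoring strand and adding a read to every transcript it overlapped. The deposited table had 34793 transcripts, of which 34516 matched the annotation by identifier.

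Spans under 125 nt, or with 10 or fewer reads over the 4 libraries, were dropped, and the transcript with the highest mean count stood for each gene. Across all genes, counts were compared in edgeR 4.0.16 under R 4.3.3 (glmFit and a likelihood ratio test) with TMM factors and Benjamini-Hochberg adjustment over all 16513 genes, without a replicate block. TMM took the place of the study's scaling on its list of Zelda targets. Isoform stretches were counted as differences of nested spans and tested with all transcripts (33677 rows). Background density was the mode of log2 density over genes above 2000 nt. Alternatives were other scalings, DESeq2 1.42.0, the quasi-likelihood test, other filters and transcripts, and leaving out each library. The fit was tested on simulated data without the unequal background of the real libraries, so that test does not cover it. The genes named were the members, the pathway lists where they passed or were needed, genes overlapping or next to members (the neighbours chosen after seeing values), the 3 genes most like Sxl, markers, and dom. Members and lists were chosen with earlier results of these data known. Promoters came from the RefSeq dm6 genome, where 17041 of 17064 genes had the same position as in the annotation used. Depth is the read total per library; counting error only is covered by it.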

Additional observations from a re-analysis of the deposited data

How the results depend on the processing

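Each group had 2 libraries, 1 DomKD library had a low share of signal, and the direction of 6 of the 8 members changed with scaling. The 2498 genes called (2092 lower, 406 higher) became 4078 with TMM on early zygotic genes (4069 lower, 9 higher), 1155 with DESeq2 (1106 lower, 49 higher) and 1215 at an adjusted p under 0.01. Library size scaling called 2474 lower and 145 higher, and occupied genes alone gave 1191 lower and 1288 higher. Leaving out 1 library gave 137 to 8825 genes, 0 to 7 of the 8 members and 0 to 25 pathway genes; the lone library was assumed to vary like the other group. Of the members, 2 were called with library size scaling and 2 with TMM on early zygotic genes, 0 with the quasi-likelihood test, 0 with DESeq2 and 6 over occupied genes. Pathway genes called were 10, 12, 2 and 16 with library size, early zygotic TMM, DESeq2 and occupied genes.

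Leaving out 1 library moved the log2 fold change of Sxl between -0.48 and 0.67, of its early span between -0.39 and 0.68, and of the stretch between its promoters between -0.48 and 0.46. The ranges were -0.28 to 0.26 for sc, -0.21 to 0.48 for upd1, -0.17 to 0.51 for dpn, -0.60 to 0.24 for da, 0.031 to 0.41 for sisA, -0.80 to -0.23 for tra and -1.004 to -0.40 for gro. TMM on early zygotic genes gave -0.19 for Sxl, -0.16 for its early span, -0.33 for the stretch between its promoters, -0.10 for sisA, -0.33 for sc, -0.18 for upd1 and -0.15 for dpn. Library size scaling gave -0.037 for sc and -0.033 for the stretch. Occupied genes gave 0.51 for Sxl and 0.21 for da, and background taken off gave 0.15 for da. The cause of these changes was not tested.

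Same-numbered libraries deviated apart (correlation -0.15), so the numbers were not taken as pairs. A replicate block called 1858 genes and 0 members (gro adjusted p = 0.0537) and lost fl(2)d (adjusted p = 0.0623), and sc was -0.0012. A crossed replicate block, added after seeing the data, called 3413 genes, 2 members and 11 pathway genes, with sc at -0.0051. Other filters and other transcripts per gene changed no direction and no call of the 8 members.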
